A study of Mus musculus with 20 samples.

Results

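Costimulatory and checkpoint ligands are the surface proteins through which a dendritic cell sets whether a T cell that recognises its antigen is activated or held back. The genes described here are 10 such ligands, chosen by name: Cd274, Pdcd1lg2, Cd80, Cd86, Cd40, Cd200, Vsir, Pvr, Nectin2 and Icosl. Each had 1 row in all 3 deposited count tables, out of 47729 genes in the table of treated and untreated cells, 54532 in the table of EpoR fractions and 55487 in the table of spleen and lymph node cells. All 10 passed the filter on low counts in every comparison, so none was left untested.

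The data are RNA-seq counts of mouse cDC1s (type 1 conventional dendritic cells), the XCR1+ lineage that cross-presents antigen to CD8 T cells, purified by sorting, in 20 libraries of 8 groups. XCR1+CD8a+ cDC1s came from wild-type C57BL/6 mice on day 15 of TLI/ATS (total lymphoid irradiation with anti-thymocyte serum, a regimen used to induce tolerance) or from untreated mice of the same genotype, with 2 libraries per group. EpoR+ and EpoR- XCR1+CD8a+ cDC1s came from EpoR-tdTomato reporter mice on day 15 of TLI/ATS, with 2 libraries per group, so both fractions had been exposed to the treatment and the reporter defined the fraction. CCR7+XCR1+SIRPa- cDC1s of the spleen and migratory XCR1+SIRPa- cDC1s of the peripheral lymph nodes came from mice with Epor deleted by Xcr1-Cre (Epor-Xcr1-Cre cKO) and from Eporflox/flox control mice, which carry the floxed alleles without, as far as the labels say, the Cre. There were 3 libraries in each of these 4 groups. The labels give no treatment or age for these mice, and do not state whether libraries came from separate or pooled animals, so p-values measure the spread between these libraries, which may be technical.

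In the textbook scheme, a T cell that meets its antigen needs a further signal through CD28, which CD80 and CD86 supply. The same 2 ligands bind the inhibitory receptor CTLA-4 more tightly. PD-L1 (Cd274) and PD-L2 (Pdcd1lg2) engage PD-1, which dampens T cell receptor signalling, and PD-L1 also binds CD80 on the same cell surface. CD40 is the receptor through which helper T cells carrying CD40 ligand license dendritic cells. ICOSL (Icosl) supplies a costimulatory signal through ICOS, CD200 signals to the inhibitory receptor CD200R1, and VISTA (Vsir) is an inhibitory member of the B7 family. CD155 (Pvr) and CD112 (Nectin2) bind both the activating receptor CD226 and inhibitory receptors such as TIGIT.

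In GRCm38 coordinates, Cd274 (ENSMUSG00000016496) lies at chr19:29367455-29388095 on the plus strand and Pdcd1lg2 (ENSMUSG00000016498) at chr19:29410919-29471161 on the same strand, with 22823 bases between them. Cd80 (ENSMUSG00000075122) lies at chr16:38455561-38496335 on the plus strand, Cd86 (ENSMUSG00000022901) at chr16:36603869-36666081 on the minus strand and Cd200 (ENSMUSG00000022661) at chr16:45382135-45409053 on the minus strand. The other genes are Cd40 at chr2:165055627-165072948 (plus), Vsir at chr10:60346851-60372684 (plus), Icosl at chr10:78069302-78083913 (plus), Pvr at chr7:19903578-19921160 (minus) and Nectin2 at chr7:19716644-19750483 (minus). Counts were per gene over its exons and, where the options are known, without strand. An opposite-strand gene, AC119228.1, shares 14.11% of the exon bases of Cd274, and Gm20512 shares 3.864% of those of Nectin2, so reads of these partners cannot be told apart there. The other 8 genes share no exon base with another annotated gene.

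The promoters of 3 genes are shown because Cd274 and Cd80 were the pair that changed together in the lymph node, and Pdcd1lg2 is the chromosomal neighbour and paralogue of Cd274 that did not pass the test there. Each is the RefSeq window on GRCm38.p6 from 250 bases before to 50 bases after an annotated start site, written 5′ to 3′ on the plus strand, with any motif match described below the sequences in capitals. The windows are chr19:29367188-29367487 for Cd274, chr16:38458683-38458982 for Cd80, which lies inside the gene span given above, and chr19:29410669-29410968 for Pdcd1lg2.
Cd274: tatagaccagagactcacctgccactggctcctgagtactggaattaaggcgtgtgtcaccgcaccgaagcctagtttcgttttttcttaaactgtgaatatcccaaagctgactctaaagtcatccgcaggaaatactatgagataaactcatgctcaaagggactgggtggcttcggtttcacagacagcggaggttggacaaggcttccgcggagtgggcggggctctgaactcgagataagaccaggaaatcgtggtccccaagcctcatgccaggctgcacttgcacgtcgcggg
Cd80: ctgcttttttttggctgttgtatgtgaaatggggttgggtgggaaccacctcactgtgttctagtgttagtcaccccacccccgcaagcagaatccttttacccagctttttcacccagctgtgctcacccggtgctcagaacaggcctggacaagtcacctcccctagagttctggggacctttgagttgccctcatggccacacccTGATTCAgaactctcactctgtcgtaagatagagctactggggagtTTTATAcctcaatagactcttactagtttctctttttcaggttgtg
Pdcd1lg2: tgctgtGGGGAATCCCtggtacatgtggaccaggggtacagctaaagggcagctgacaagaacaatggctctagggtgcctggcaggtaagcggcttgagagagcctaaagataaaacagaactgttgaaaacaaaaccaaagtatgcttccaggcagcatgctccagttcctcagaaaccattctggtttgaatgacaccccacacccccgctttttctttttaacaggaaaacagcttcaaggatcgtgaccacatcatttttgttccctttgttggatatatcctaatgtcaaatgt

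A promoter window was found for 7 of the 10 genes, and those of Cd86, Cd40 and Pvr are not shown or searched here. Both strands were searched for the NF-kB motif, the interferon-gamma activated site TTCNNNGAA, the interferon-stimulated response element, the AP-1 motif in the form TGANTCA and in the stricter form TGACTCA, which the looser form contains, and TATAAA. The stricter AP-1 form was added after the matches of the looser one had been seen. Positions count from the start site, with -1 for the base before it and 0 for the first base after it. Pdcd1lg2 held an NF-kB match, GGGGAATCCC, at positions -244 to -235. Cd80 held a match to the looser AP-1 form, TGATTCA, at positions -42 to -36, which is not a match to the stricter form, and TTTATA, the reverse strand of TATAAA, at positions 4 to 9. Icosl held an NF-kB match, GGAGCTCCCC on the strand shown, at positions -111 to -102. Cd274, Cd200, Vsir and Nectin2 held none of these letters in this window. Among all 32851 promoter windows, 8.46% held an NF-kB match, 8.30% the interferon-gamma activated site, 3.44% the interferon-stimulated response element, 7.81% the looser and 5.20% the stricter AP-1 form, and 13.6% TATAAA. A match is a description of these letters only.

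Total counts ran from 26618029 to 77570149 per library, and a floor of 3 counts corresponded to between 0.0387 and 0.113 CPM of the unscaled library. Epor had 236 and 127 counts after TLI/ATS and none in either untreated library, 525 and 657 counts in EpoR+ and 4 and 11 in EpoR- libraries, 0 in all 3 lymph node cKO and 24, 28 and 4 in lymph node control libraries, and 0, 2 and 0 in spleen cKO and 1, 0 and 6 in spleen control libraries. In the spleen, therefore, Epor was near the floor in both genotypes and its counts check the deletion little. Lymph node controls were low as well, at 0.537, 0.626 and 0.0967 CPM, and replicate 3, with 4 counts, was next to the floor. The check there rests on few counts. The cDC1 markers were detected in every group, and all 11 were above 0. Summed over the list, they ran from 12146 to 12425 CPM after TLI/ATS and from 8654 to 8744 CPM in untreated cells. CPM are counts divided by the library total after TMM scaling (trimmed mean of M values) and set to a common library size, and groups are compared only within a table.

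Order of the genes by level was read from TPM, which divide counts by exon length. TPM were used to rank genes within a group, for the ratios of ligands within a library given below and, beside CPM, for the tissues. Gene lengths were given with the EpoR table and with the spleen and lymph node table only. In EpoR+ cDC1s the level of Cd86 was 364 ± 0.10 TPM and that of Vsir 303 ± 11.8 TPM (SD, n = 2). These 2 ligands stood apart from Cd274 at 81.0 ± 27.9 TPM, which in turn did not overlap Icosl at 48.0 ± 2.44 TPM. Icosl and Cd80 (42.6 ± 12.9 TPM) overlapped, as did Pvr (11.3 ± 3.91 TPM), Cd200 (8.26 ± 0.53 TPM) and Pdcd1lg2 (8.21 ± 0.17 TPM) as neighbours. Nectin2 was lowest at 6.51 ± 0.28 TPM. In EpoR- cDC1s Cd86 (293 ± 19.9 TPM) and Vsir (117 ± 2.50 TPM) also led, whereas Icosl, Cd80, Cd274 and Cd40, between 59.9 and 30.9 TPM, each overlapped the next. Pdcd1lg2 (2.51 ± 1.51 TPM) and Nectin2 (1.18 ± 0.90 TPM) were the 2 lowest and overlapped.

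The CCR7+ spleen and lymph node cDC1s had another order, led by Cd40, Icosl and Cd274 in all 4 groups. In lymph node cKO cells Cd40 stood at 490 ± 60.2 TPM, Icosl at 363 ± 23.8 TPM and Cd274 at 98.1 ± 19.96 TPM (SD, n = 3), with no overlap between neighbours. In lymph node control cells these genes stood at 519 ± 96.6, 415 ± 58.2 and 77.6 ± 12.7 TPM, and Cd274 overlapped the next gene, Pvr, at 68.8 ± 13.3 TPM. Spleen cKO cells had Cd40 at 259 ± 27.9 TPM, overlapping Icosl at 215 ± 33.5 TPM, and Cd274 at 79.8 ± 10.5 TPM. Spleen control cells had 316 ± 88.4, 245 ± 77.4 and 110 ± 36.8 TPM for the same genes. Replicate 3 was the lowest for each of them, with Cd40 at 214 TPM against 357 and 376 TPM. From Cd274 down to Pdcd1lg2 every gene overlapped the next in that group. Nectin2 was lowest in all 4 groups, between 2.06 and 4.06 TPM on average. The gene above it was Cd80 in both lymph node groups and Pdcd1lg2 in both spleen groups.

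**Figure D1:**
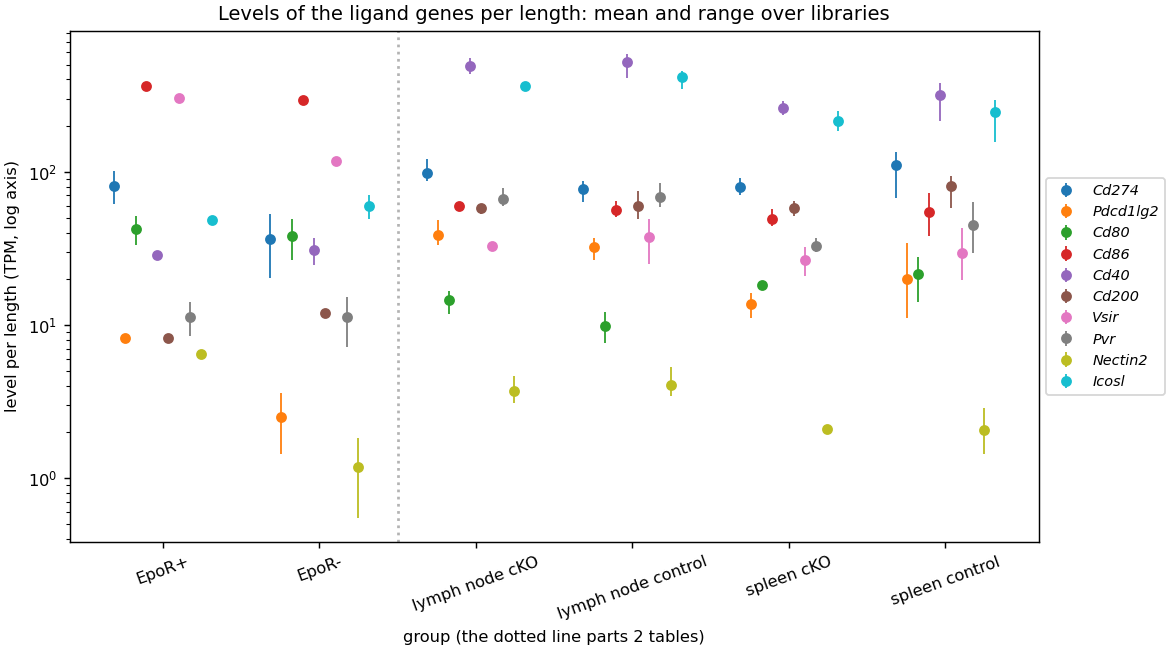
Levels per length of the 10 ligand genes in 6 groups, on a log axis of TPM. Points are means and bars run from the lowest to the highest library (n = 2 in EpoR+ and EpoR-, n = 3 in the other groups). Cd86 and Vsir lead in the EpoR fractions, and Cd40 and Icosl lead in the spleen and lymph node groups.

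The balance of ligands for the same receptor pair was read within each library, where the scaling of libraries cancels. The level of Cd86 over that of Cd80 per length was 3.78, 3.69 and 5.04 in lymph node cKO libraries and 5.31, 6.58 and 5.67 in lymph node control libraries. Every cKO ratio was below every control ratio, although the third cKO library lay close to the lowest control. In the spleen the ratio was 2.62, 2.96 and 2.52 in cKO and 1.87, 3.23 and 2.69 in control libraries, which overlapped, and each of these lay below all lymph node values. In the EpoR table it was 10.9 and 7.05 in EpoR+ and 10.5 and 6.21 in EpoR- libraries. The summed level of the PD-1 ligands over that of the CD28 ligands was 0.174 and 0.262 in EpoR+ and 0.0710 and 0.159 in EpoR- libraries. It was 1.67, 2.18 and 1.67 in lymph node cKO and 1.56, 1.55 and 1.88 in lymph node control libraries, and 1.43, 1.41 and 1.32 in spleen cKO and 1.76, 1.77 and 1.56 in spleen control libraries. The spleen genotypes did not overlap in this ratio, cKO being lower, while the lymph node genotypes did. These ratios were computed after the levels had been seen and carry no test.

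Lymph node cKO against control asks how migratory cDC1s differ between mice with Epor deleted by Xcr1-Cre and control mice. The deletion was not limited to the lymph node. Of the 10 ligand genes, Cd274 and Cd80 rose in lymph node cKO cDC1s and none fell. Over all 17362 genes tested, 0.455% were called in either direction, 0.288% higher and 0.167% lower. A call here and below is a Benjamini-Hochberg adjusted p under 0.05 over all genes tested in edgeR's quasi-likelihood test. The median log2 fold change was 0.11 over the 10 genes and 0 over all genes. In counts over all genes, lymph node cKO replicate 2 and lymph node control replicate 2 were each nearer to libraries of the other genotype than to their own group.

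Cd274, which encodes PD-L1, had 145, 160 and 142 CPM in lymph node cKO libraries and 108, 102 and 109 CPM in lymph node control libraries. All cKO libraries lay above all controls, and the gap between the groups was wider than either group's range. The log2 fold change was 0.48 ± 0.08 (SE), 1.40-fold, with an adjusted p of 0.0071. It was called after leaving out each of the 6 lymph node libraries in turn, with adjusted p from 0.016 to 0.039. Scaling by library size alone gave an adjusted p of 0.0513, and a fit on the 6 lymph node libraries alone gave 0.0644, at nearly the same fold change (0.48 and 0.49).

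Cd80 had 25.9, 22.4 and 19.9 CPM in lymph node cKO libraries, against 15.5, 12.7 and 12.9 CPM in lymph node control libraries. The groups did not overlap. The log2 fold change was 0.73 ± 0.15, 1.66-fold, with an adjusted p of 0.0342. This call rested on more of the libraries. The adjusted p was 0.209 without cKO replicate 1, 0.0905 without cKO replicate 2, 0.154 without control replicate 2 and 0.141 without control replicate 3, while the log2 fold change stayed between 0.63 and 0.83. A fit on the 6 lymph node libraries alone gave 0.146, and scaling by library size alone gave 0.0558.

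Pdcd1lg2, the PD-L2 gene, had 31.2, 34.4 and 29.5 CPM in lymph node cKO and 22.1, 23.2 and 26.4 CPM in lymph node control libraries. Its groups did not overlap either, but the spread fitted over all 12 libraries was wide. The log2 fold change of 0.41 ± 0.26 did not pass (adjusted p = 0.834). The SD was 2.50 CPM in lymph node cKO and 2.25 CPM in lymph node control, against 11.96 CPM in spleen control libraries. Groups without overlap were thus seen for 3 of the 10 genes, against 15.5% of all genes. Cd86 had 96.6, 81.7 and 99.1 CPM in cKO and 81.1, 82.5 and 72.0 CPM in control libraries, with a log2 fold change of 0.24 ± 0.11 and an adjusted p of 0.676. For the other 6 genes the groups overlapped. Their log2 fold changes ran from -0.04 for Icosl to 0.13 for Cd200. An interval of 2 SE around the value of Cd40 (0.08) ran from -0.06 to 0.21 and that of Icosl from -0.18 to 0.11, so for these abundant genes larger shifts lay outside the interval. That of Nectin2 ran from -0.55 to 0.65, which leaves more room.

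**Figure D2:**
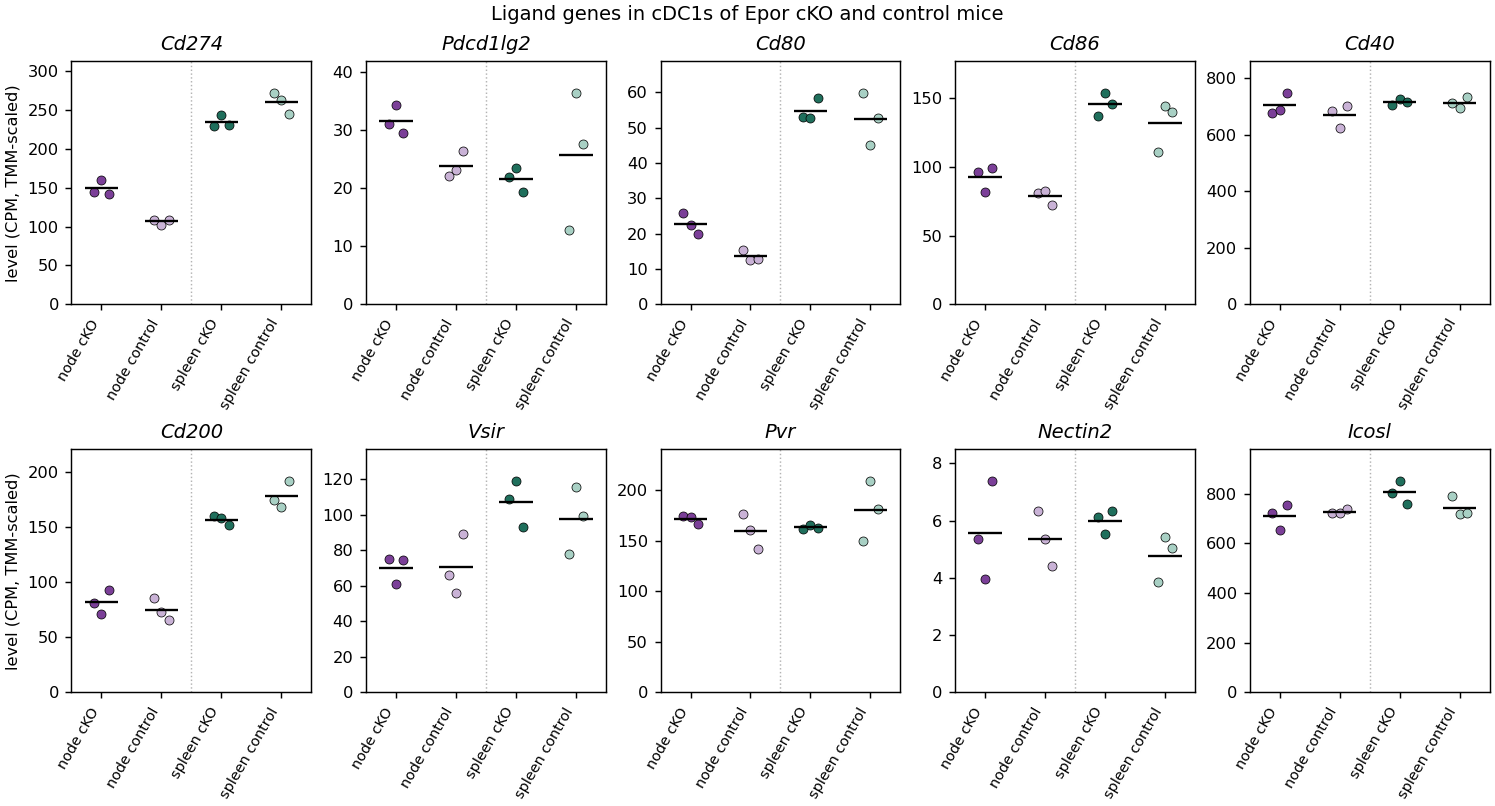
Level of each ligand gene in CPM of the TMM-scaled library, with a linear axis that starts at 0 in every panel. Points are libraries and bars are means, for lymph node cKO, lymph node control, spleen cKO and spleen control cDC1s (n = 3 each). Cd274 and Cd80 are higher in all lymph node cKO libraries than in all lymph node controls, and both are lower in the lymph node than in the spleen.

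Of the companion genes of these ligands, 2 were called in the lymph node. Among 24 tested genes of 28 other ligands of T cell costimulation and inhibition, 1 was called: Nectin1, an adhesion molecule of the nectin family, at 11.7 ± 1.31 CPM in cKO and 5.53 ± 0.60 CPM in control cells (SD, n = 3 each), with a log2 fold change of 1.09 ± 0.17 and an adjusted p of 0.00446. Among the 10 genes of CD40 signalling 1 was called: Map3k14, which encodes the kinase NIK of the non-canonical NF-kB pathway, at 308 ± 5.35 CPM in cKO and 213 ± 25.5 CPM in control cells, with a log2 fold change of 0.53 ± 0.10 and an adjusted p of 0.0185. None of the 11 tested counter-receptors, whose median log2 fold change was -0.26 against 0 over all genes, and none of the 3 genes that handle these ligands at the surface was called. Of the 11 cDC1 markers 2 were called, and they are named after their values were seen. Clec9a rose with a log2 fold change of 0.62 ± 0.11 (adjusted p = 0.0101), and Cd8a rose with 0.51 ± 0.09 (adjusted p = 0.00993). Summed, the 11 cDC1 markers ran from 1831 to 1876 CPM in cKO and from 1852 to 1908 CPM in control libraries. T cell markers summed to between 216 and 253 CPM in cKO and between 301 and 311 CPM in control libraries, with none of 11 called. The part of these other cells in the result was not tested. In bulk samples of this kind, fewer cells of a type and less RNA per cell cannot be told apart.

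In the spleen none of the 10 genes was called between cKO and control by edgeR, none had an unadjusted p under 0.05, and DESeq2 also called none. Over all genes, 0.611% were called, 0.49% higher and 0.121% lower. Spleen control replicate 3 stood apart from its group, and without it 379 genes were called over all, against 106 with it. Still, 0 of the 10 ligands were called with any 1 library left out. Cd274 had 229, 244 and 230 CPM in spleen cKO and 272, 262 and 245 CPM in spleen control libraries. The groups did not overlap, cKO being lower, but the highest cKO and the lowest control library were close, and the log2 fold change of -0.15 ± 0.08 did not pass (adjusted p = 0.447). Cd80 had 53.0, 52.7 and 58.3 CPM in cKO and 59.9, 45.1 and 52.6 CPM in control libraries, which overlapped, with a log2 fold change of 0.06 ± 0.14. Pdcd1lg2 had 21.9, 23.5 and 19.4 CPM in cKO and 12.8, 36.5 and 27.7 CPM in control libraries. The controls spanned the cKO values on both sides. Cd200 was at 160, 159 and 152 CPM in cKO and 175, 168 and 192 CPM in control libraries, without overlap, and its log2 fold change of -0.19 ± 0.11 had an adjusted p of 0.519. Nectin2 was the other gene without overlap, which made 3 of 10 against 17.9% of all genes. The median over the 10 genes was a log2 fold change of 0.03, and 0 over all genes.

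Beside the ligands in the spleen, Traf5, an adaptor of CD40 signalling, fell to 40.6 ± 0.86 CPM in cKO, against 57.9 ± 6.23 CPM in control cells (log2 fold change -0.51 ± 0.10, adjusted p = 0.0371). None of 24 other ligands, 11 counter-receptors and 3 genes of surface handling was called. Plasma cell markers summed to between 2866 and 3168 CPM in cKO and between 1466 and 1585 CPM in control libraries, and 3 of 7 were called higher. Their part in the values of the ligands was not tested.

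The difference between the 2 effects was itself tested. The cKO effect on Cd274 was larger in the lymph node than in the spleen by 0.63 ± 0.11 on the log2 scale (adjusted p = 0.02), and it was the only one of the 10 genes called, against 0.317% of all genes in either direction (0.127% higher and 0.19% lower). That call was lost when 1 library was left out in 7 of 12 cases: any of the 3 spleen cKO libraries, spleen control replicate 1, lymph node cKO replicate 1 or 2, or lymph node control replicate 1. The adjusted p then lay between 0.0518 and 0.097 and the difference between 0.58 and 0.65. Scaling by library size alone also ended it (0.59, adjusted p = 0.0887), and in all it was called in 8 of 17 alternatives. For Cd80 the difference was 0.68 ± 0.20 with an adjusted p of 0.185, and for Pdcd1lg2 it was 0.65 ± 0.37 with 0.484. DESeq2 called the difference for Cd80, at 0.69 with an adjusted p of 0.0411, so whether it passes depended on the tool.

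**Figure D3:**
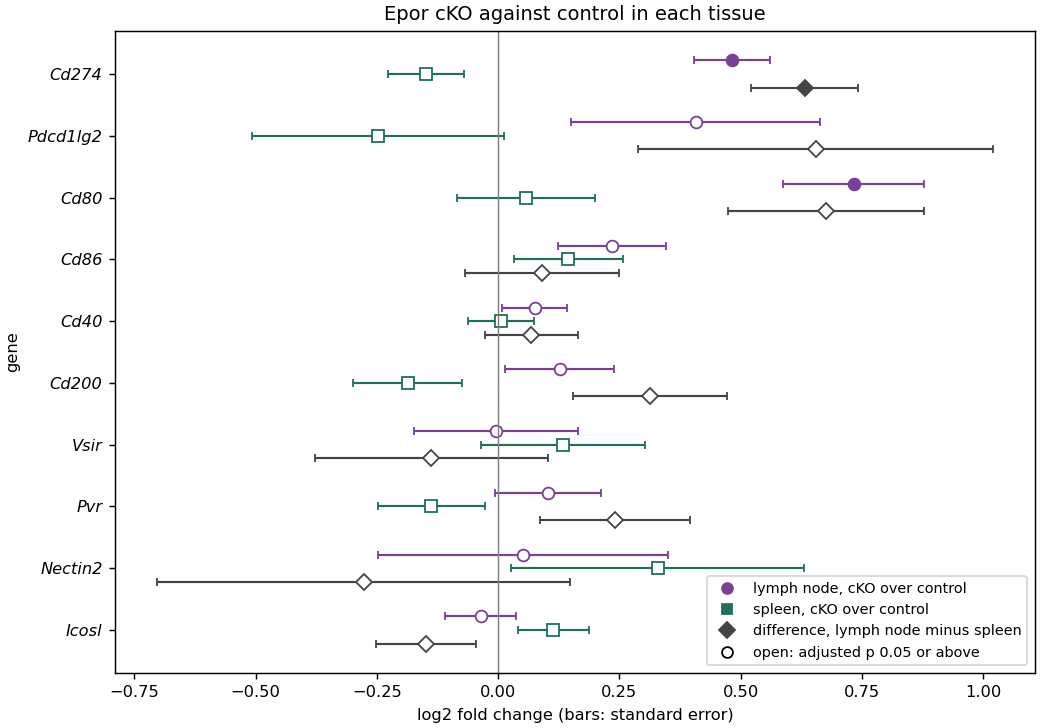
Log2 fold change of cKO over control in the lymph node and in the spleen, and the difference between the 2 effects, for each ligand gene. Bars are standard errors from a fit on 12 libraries, and filled symbols passed an adjusted p of 0.05. Filled symbols are those of Cd274 (0.48 in the lymph node, 0.63 for the difference) and Cd80 (0.73 in the lymph node).

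Set against spleen, lymph node cDC1s had less RNA of 5 of the 10 ligands per scaled library, in either genotype. Sorting used a different gate in each tissue, so tissue and gate cannot be told apart in these comparisons. In control mice Cd80, Cd274, Cd200, Cd86 and Vsir fell in the lymph node and the other 5 genes were not called. Over all genes, 20.3% were called lower, 21.0% higher and 41.3% in either direction. In cKO mice the called genes were again Cd80, Cd200, Cd86, Cd274 and Vsir, all lower, against 15.3% of all genes called lower, 14.1% higher and 29.4% in either direction. The median log2 fold change over the 10 genes was -0.39 in cKO mice and -0.32 in control mice, beside 0.00 and -0.01 over all genes. In mean TPM, lymph node against spleen, the direction differed for some of these 5 genes. Cd80 was lower in both genotypes (14.5 against 18.1 in cKO and 9.77 against 21.4 in control mice). Cd86 was higher in both (59.4 against 49.1 and 56.3 against 54.2), as was Vsir (32.9 against 26.5 and 37.4 against 29.6). Cd274 was higher in cKO (98.1 against 79.8) and lower in control mice (77.6 against 110). Cd200 was at 57.9 against 58.2 and 59.6 against 80.5. TPM were not tested.

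Cd80 showed the largest fold of the 10 in both genotypes. From the values given above, the lymph node libraries lay at 25.9 CPM or below in cKO mice and at 15.5 CPM or below in control mice, while no spleen library lay under 45.1 CPM. The log2 fold change of lymph node over spleen was -1.27 ± 0.14 in cKO mice (adjusted p = 8.0e-06) and -1.94 ± 0.15 in control mice (adjusted p = 7.7e-08). Cd274 fell, with -0.65 ± 0.08 in cKO mice (adjusted p = 1.3e-05) and -1.29 ± 0.08 in control mice (adjusted p = 8.3e-09), again without overlap. These 2 comparisons are read from the same fit as the difference of the cKO effect given above, and are not further evidence for it.

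Cd200 had 81.1, 71.0 and 93.4 CPM in lymph node cKO and 160, 159 and 152 CPM in spleen cKO libraries, a log2 fold change of -0.94 ± 0.11 (adjusted p = 1.4e-05). In control mice it had 85.6, 73.0 and 66.2 CPM in the lymph node and 175, 168 and 192 CPM in the spleen, with -1.25 ± 0.11 (adjusted p = 4.8e-07). In both genotypes every lymph node library was below every spleen library. Cd86 had 137, 154 and 146 CPM in spleen cKO and 111, 144 and 140 CPM in spleen control libraries, all above the lymph node values. Its log2 fold change of lymph node over spleen was -0.66 ± 0.11 in cKO mice (adjusted p = 3.6e-04) and -0.75 ± 0.11 in control mice (adjusted p = 7.6e-05).

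Vsir, the VISTA gene, was less firm. It had 75.3, 60.9 and 74.3 CPM in lymph node cKO and 109, 119 and 93.1 CPM in spleen cKO libraries, without overlap, and a log2 fold change of -0.61 ± 0.17 (adjusted p = 0.0132). In control mice it had 66.1, 56.1 and 88.9 CPM in the lymph node and 77.6, 116 and 99.3 CPM in the spleen, where the groups overlapped, with -0.47 ± 0.17 (adjusted p = 0.0368). The control call was lost without spleen control replicate 2 (adjusted p = 0.206), spleen control replicate 3 (0.103), lymph node control replicate 1 (0.115) or lymph node control replicate 2 (0.164). The cKO call was lost without spleen cKO replicate 2 (0.0733) or lymph node cKO replicate 2 (0.0603). Scaling by library size alone ended both calls (0.124 in cKO and 0.443 in control mice), and a fit on the 6 control libraries ended the control call (0.0993). The control call held in 5 of 12 alternatives and the cKO call in 9 of 12.

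In scaled CPM the most abundant ligands were close to level between the tissues. In mean TPM Cd40 and Icosl were higher in the lymph node, without a test. Cd40 had 490 TPM in lymph node cKO against 259 TPM in spleen cKO cells, and 519 against 316 TPM in control cells. Icosl had 363 against 215 TPM in cKO and 415 against 245 TPM in control cells. Cd40 had 679, 687 and 748 CPM in lymph node cKO and 705, 726 and 717 CPM in spleen cKO libraries, and 683, 623 and 701 CPM in lymph node control and 713, 693 and 732 CPM in spleen control libraries. The groups overlapped, and the log2 fold changes were -0.02 ± 0.07 in cKO and -0.09 ± 0.07 in control mice. Icosl had 722, 653 and 756 CPM in lymph node cKO and 804, 852 and 759 CPM in spleen cKO libraries, which did not overlap, with a log2 fold change of -0.18 ± 0.07 and an adjusted p of 0.0769. In control mice it had 724, 721 and 739 CPM in the lymph node and 791, 719 and 722 CPM in the spleen. These directions depend on the scaling: with library size alone, Cd40 was called higher in the lymph node of both genotypes (log2 fold change 0.22 in cKO and 0.20 in control mice) and Icosl higher in control mice (0.26). That scaling also moved the median of all genes, to 0.25 in cKO and 0.28 in control mice, and all 3 values lay below that median.

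Groups without overlap numbered 8 of the 10 genes in cKO mice, against 50.9% of all genes, and 4 of the 10 in control mice, against 49.5%. Pdcd1lg2 and Pvr were the 2 genes with every lymph node library above every spleen library in cKO mice, and neither passed in the 12-library fit. For Pdcd1lg2 the log2 fold change was 0.55 ± 0.26 in cKO mice (adjusted p = 0.125). It had 31.2, 34.4 and 29.5 CPM in lymph node cKO and 21.9, 23.5 and 19.4 CPM in spleen cKO libraries. It was called higher in the lymph node with library size alone (0.80, adjusted p = 0.0302), with no low-count filter (0.57, 0.0119) and in a fit on the 6 cKO libraries (0.55, 0.0062). In control mice the log2 fold change was -0.10 ± 0.26, with 1 spleen control library at 12.8 CPM and another at 36.5 CPM. Pvr had 175, 174 and 167 CPM in lymph node cKO and 162, 166 and 163 CPM in spleen cKO libraries, a log2 fold change of 0.07 ± 0.11 (adjusted p = 0.686), and with library size alone it was called higher (0.31, adjusted p = 0.0473). In control mice it had 177, 161 and 142 CPM in the lymph node and 150, 209 and 181 CPM in the spleen, which overlapped, with -0.17 ± 0.11. Nectin2 had 5.35, 3.95 and 7.38 CPM in lymph node cKO and 6.11, 5.52 and 6.33 CPM in spleen cKO libraries, with -0.11 ± 0.30. In control mice it had 6.35, 5.37 and 4.40 CPM in the lymph node and 3.84, 5.42 and 5.06 CPM in the spleen, with 0.17 ± 0.30. Nectin2, at 3.84 to 7.38 CPM over the 12 libraries, had the widest errors of the 10.

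**Figure D4:**
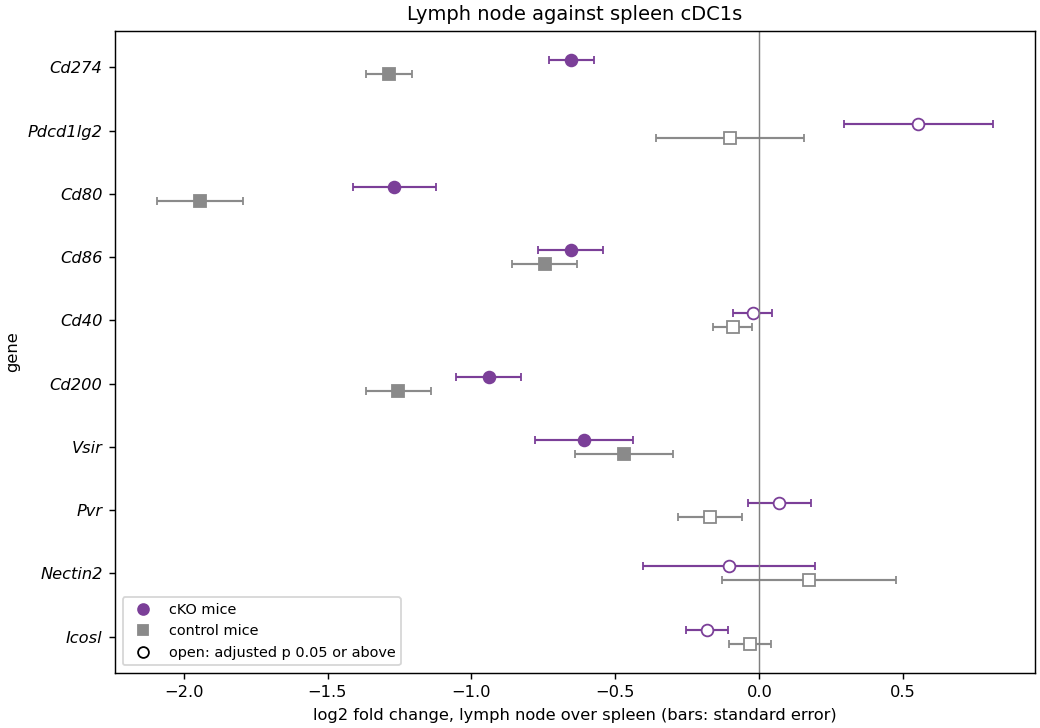
Log2 fold change of lymph node over spleen cDC1s for each ligand gene, in cKO and in control mice, with standard errors. Filled symbols passed an adjusted p of 0.05. Cd80, Cd274, Cd200, Cd86 and Vsir are filled and below 0 in both genotypes, and the other 5 genes are open.

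Genes around the ligands also differed between the tissues. Of 24 other ligands tested, 3 rose and 7 fell in cKO mice, and 6 rose and 8 fell in control mice. Slamf1, a self-binding receptor of the SLAM family, was among the largest rises, with a log2 fold change of 3.68 ± 0.16 in cKO mice and 3.75 ± 0.16 in control mice. Nectin1 fell, with -1.505 ± 0.17 in cKO mice and -2.59 ± 0.17 in control mice on the same scale. Btla and Havcr2, which encode the inhibitory receptors BTLA and TIM-3, fell in both genotypes. Btla had -1.99 ± 0.15 in cKO and -2.01 ± 0.15 in control mice, and Havcr2 had -1.996 ± 0.17 in cKO and -1.65 ± 0.17 in control mice. Among genes that handle the ligands at the surface, Cmtm6, whose product keeps PD-L1 from degradation, rose by 1.99 ± 0.19 in cKO and by 2.41 ± 0.19 in control mice. March1, a ubiquitin ligase that removes CD86 and MHC class II from the surface, fell, with -2.37 ± 0.30 in cKO and -2.30 ± 0.30 in control mice. All of these passed an adjusted p of 0.05.

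In CD40 signalling, 5 of 10 genes rose and 1 fell in cKO mice, and 4 rose and 4 fell in control mice. Over all genes, 14.1% rose and 15.3% fell in cKO mice, and 21.0% rose and 20.3% fell in control mice. The median log2 fold change of the list was 0.29 in cKO and 0.03 in control mice, and only genes that rose are named. Nfkb2 and Relb, the pair of non-canonical NF-kB subunits, rose by 0.54 ± 0.06 and 0.49 ± 0.06 in cKO mice and by 0.49 ± 0.06 and 0.47 ± 0.06 in control mice. Of 11 counter-receptors, 4 rose and 2 fell in cKO mice, and 5 rose and 2 fell in control mice. Their median log2 fold change was 0.39 in cKO and 0.49 in control mice, and only genes that fell are named. Icos fell, with -1.07 ± 0.10 in cKO and -1.62 ± 0.11 in control mice, and so did Ctla4, with -2.12 ± 0.28 in cKO and -0.77 ± 0.27 in control mice. T cell markers were higher in the lymph node, at 216 to 253 CPM against 92.7 to 105 CPM in the spleen of cKO mice and 301 to 311 CPM against 86.9 to 96.7 CPM in the spleen of control mice. The cDC1 markers were lower, at 1831 to 1876 CPM against 3645 to 3752 CPM in cKO mice and 1852 to 1908 CPM against 3614 to 4066 CPM in control mice. Plasma cell markers were lower in the lymph node too, at 258 to 310 CPM against 2866 to 3168 CPM in cKO mice and 274 to 302 CPM against 1466 to 1585 CPM in control mice. The part of other cells in the ligands' values was not tested.

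Over these 12 libraries the levels of Cd274 and Cd80 had a Pearson correlation of 0.98 on log2 CPM, Cd274 and Cd200 one of 0.93, Cd80 and Cd86 one of 0.91, and Cd274 and its neighbour Pdcd1lg2 one of -0.22. Among 7463 genes whose mean reached 3 on the log2 CPM scale, those most like Cd274 were Bcl2l11 (r = 0.994), the gene of the pro-apoptotic protein BIM, and Tbc1d1 (r = 0.991). For Cd80 they were Ifitm3 (r = 0.985) and Ddx39b (r = 0.982), for Cd86 Btg2 (r = 0.981) and Rrad (r = 0.976), and for Cd200 Cd81 (r = 0.988) and Skap2 (r = 0.987). Vsir was most like Prdx3 (r = 0.939), Icosl like Cd68 (r = 0.897), and Cd40 had no gene above Atp6ap1 (r = 0.826). The libraries fall into 4 groups of 2 tissues, which the points share, and the values are given as a description.

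The comparison of EpoR+ with EpoR- cDC1s asks how cells that carry the receptor after TLI/ATS differ from those that do not. Of the 10 ligands, Vsir rose in EpoR+ cells and the other 9 were not called, while 11.9% of all 15627 genes tested were called higher, 4.75% lower and 16.7% in either direction. The median log2 fold change was 0.21 over the 10 genes and 0.02 over all genes. Vsir had 518 and 523 CPM in EpoR+ libraries and 216 and 199 CPM in EpoR- libraries. Each pair was tight against the gap between them, and the log2 fold change was 1.33 ± 0.10, 2.51-fold, with an adjusted p of 9.1e-04. It was called under all 9 alternatives, with log2 fold changes from 1.27 to 1.39.

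Several of the other ligands were higher in both EpoR+ libraries with an error too wide to pass. Nectin2 had 8.22 and 7.40 CPM in EpoR+ and 2.29 and 0.654 CPM in EpoR- libraries, a log2 fold change of 2.40 ± 0.61 with an adjusted p of 0.0558. Pdcd1lg2 had 4.67 and 4.60 CPM in EpoR+ and 0.856 and 2.02 CPM in EpoR- libraries, a log2 fold change of 1.69 ± 0.51 with an adjusted p of 0.0834. In both genes the EpoR+ pair was close together and the EpoR- pair differed by more than 2-fold. DESeq2 called both (adjusted p = 6.1e-04 and 0.0198), as did edgeR without the low-count filter (0.0156 and 0.0248). Cd274 had 77.9 and 122 CPM in EpoR+ and 26.4 and 65.9 CPM in EpoR- libraries, with a log2 fold change of 1.12 ± 0.53 and an adjusted p of 0.273. Both EpoR+ libraries lay above both EpoR- libraries, and each pair was wide, with replicate 2 the higher in both fractions. Values of these genes under a replicate block are given in the closing section.

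The CD28 ligands differed less. Cd86 had 468 and 448 CPM in EpoR+ and 368 and 385 CPM in EpoR- libraries, without overlap, and its log2 fold change of 0.28 ± 0.10 had an adjusted p of 0.115. Cd80 had 43.5 and 64.2 CPM in EpoR+ and 35.4 and 62.8 CPM in EpoR- libraries, which overlapped. Cd200 had 10.1 and 8.79 CPM in EpoR+ and 14.8 and 13.3 CPM in EpoR- libraries, a log2 fold change of -0.57 ± 0.20 with an adjusted p of 0.118. Icosl had 75.1 and 77.1 CPM in EpoR+ and 81.7 and 112 CPM in EpoR- libraries, with -0.35 ± 0.17 and an adjusted p of 0.253. Cd40 had 32.2 and 34.8 CPM in EpoR+ and 30.4 and 43.4 CPM in EpoR- libraries, with a log2 fold change of -0.14 ± 0.20. Pvr had 18.3 and 28.8 CPM in EpoR+ and 15.97 and 32.1 CPM in EpoR- libraries, with -0.03 ± 0.41. Both overlapped between the fractions. Non-overlapping groups numbered 7 of the 10 genes, against 58.2% of all genes. An unadjusted p under 0.05 was seen for 5 of the 10, but the share of all genes under it is not given here. That count is therefore not read as a result on the ligands.

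EpoR+ libraries also carried far more RNA of macrophage markers, which summed to between 20094 and 20313 CPM, against 276 to 289 CPM in EpoR- libraries, and all 12 were called higher. None of these markers was at 0 in either fraction. As examples picked after their values were seen, Csf1r, the receptor for macrophage colony-stimulating factor, stood at 2720 ± 43.6 CPM in EpoR+ and 39.3 ± 7.03 CPM in EpoR- cells, and the complement gene C1qa at 1544 ± 45.2 CPM in EpoR+ and 15.6 ± 0.34 CPM in EpoR- cells (SD, n = 2 each). Markers of cDC2s and monocytes summed to between 1946 and 2007 CPM in EpoR+ and between 122 and 174 CPM in EpoR- libraries, with 6 of 9 called higher and 1 lower. The cDC1 markers summed to between 7564 and 9017 CPM in EpoR+ and between 16085 and 17804 CPM in EpoR- libraries, with 10 of 11 called lower. The part of these cells in the value of Vsir or of the other ligands was not tested.

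Other ligands of the list changed in both directions between the fractions, with 8 of 22 tested higher and 4 lower in EpoR+ cells. Cd84, a self-binding receptor of the SLAM family, had 106 ± 4.69 CPM in EpoR+ and 4.47 ± 0.73 CPM in EpoR- cells, a log2 fold change of 4.56 ± 0.17. Timd4, which encodes the phosphatidylserine receptor TIM-4, had 87.9 ± 0.99 CPM in EpoR+ and 3.80 ± 0.68 CPM in EpoR- cells, with 4.53 ± 0.18. Tnfsf18, the GITR ligand gene, rose by 3.71 ± 0.39 on the log2 scale. Btla fell, with a log2 fold change of -1.25 ± 0.10, as did Havcr2 (-1.18 ± 0.10) and Nectin1 (-0.89 ± 0.16). Among counter-receptors 3 of 11 rose, and Cd200r1, the receptor for CD200, had 55.2 ± 3.22 CPM in EpoR+ and 6.96 ± 2.27 CPM in EpoR- cells. Pvrig rose by 5.20 ± 0.39 and Icos by 2.19 ± 0.33. Cmtm4, a relative of Cmtm6, rose by 1.61 ± 0.13, and Traf6 fell, with -0.45 ± 0.11. Adjusted p-values of the genes named ran below 0.05 in edgeR's test.

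**Figure D5:**
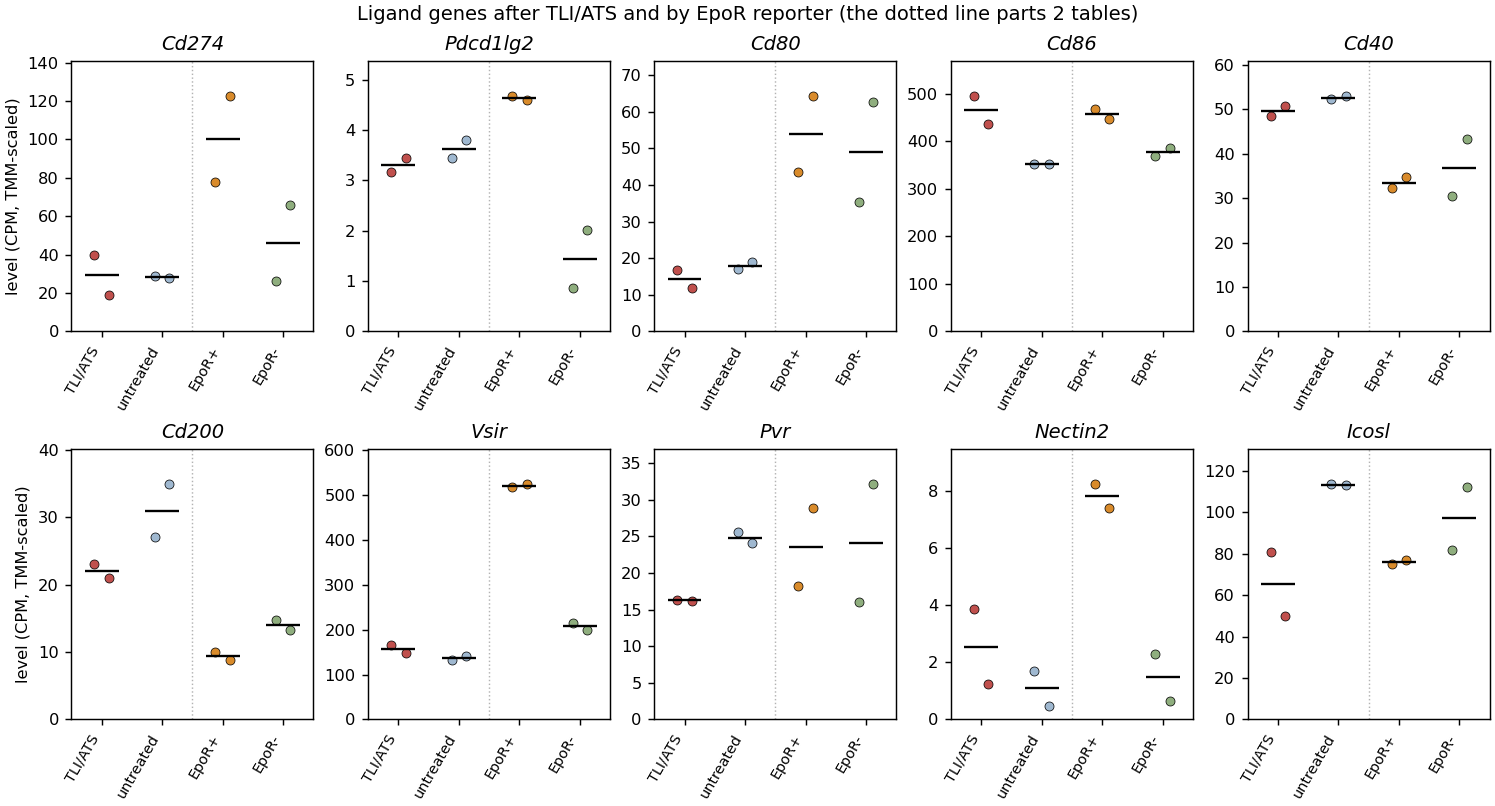
Level of each ligand gene in CPM of the TMM-scaled library, with a linear axis that starts at 0 in every panel. Points are libraries and bars are means, for TLI/ATS and untreated cDC1s and, right of the dotted line, for EpoR+ and EpoR- cDC1s from another table (n = 2 each). Vsir is the ligand with tight pairs and a wide gap between EpoR+ (518 and 523 CPM) and EpoR- (216 and 199 CPM), while Cd274 differs more between the 2 TLI/ATS libraries than between the group means.

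TLI/ATS against no treatment asks how the regimen changes cDC1s as a whole. None of the 10 ligands was called by edgeR or by DESeq2. In edgeR 2 had an unadjusted p under 0.05, without a share over all genes to set beside it. Of all 17236 genes tested, 2.7% were called in either direction, 0.499% higher and 2.2% lower. Icosl had 80.9 and 49.9 CPM in TLI/ATS libraries and 113 CPM in both untreated libraries, a log2 fold change of -0.79 ± 0.27 with an adjusted p of 0.259. Pvr had 16.3 and 16.2 CPM after TLI/ATS and 25.5 and 24.1 CPM untreated, with -0.61 ± 0.19 and an adjusted p of 0.21. Both genes were lower in both treated libraries. Cd86 had 494 and 436 CPM after TLI/ATS and 353 and 352 CPM untreated, with 0.40 ± 0.16 and an adjusted p of 0.323.

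Cd274 had 39.7 and 19.2 CPM after TLI/ATS, on both sides of the untreated values of 28.8 and 27.6 CPM. Its log2 fold change of 0.06 ± 0.37 changed sign with the library left out: -0.55 without TLI/ATS replicate 1 and 0.49 without TLI/ATS replicate 2. In those fits the spread comes from the untreated pair alone, and the lone treated library is assumed to vary like it. Calls over all genes rose in them as well, so their calls are not read as results on the ligands. The other ligands gave smaller or less certain values. Cd200 had 23.1 and 21.0 CPM after TLI/ATS and 27.0 and 34.9 CPM untreated. Vsir had 166 and 148 CPM after TLI/ATS and 133 and 142 CPM untreated, and Cd80 had 16.7 and 11.7 CPM after TLI/ATS and 16.99 and 19.0 CPM untreated. Each of these 3 genes had groups that did not overlap, with an adjusted p of 0.375 for Cd200, 0.672 for Vsir and 0.624 for Cd80. Cd40 had 48.4 and 50.8 CPM after TLI/ATS and 52.3 and 52.9 CPM untreated, a log2 fold change of -0.08 ± 0.16. Pdcd1lg2 had 3.16 and 3.44 CPM after TLI/ATS and 3.44 and 3.80 CPM untreated, with -0.13 ± 0.26. Nectin2 was near the low end in both groups, at 3.85 and 1.26 CPM after TLI/ATS and 1.70 and 0.473 CPM untreated, with 1.23 ± 0.81. Groups did not overlap for 7 of the 10 genes, against 47.5% of all genes, and the median log2 fold change was -0.11 over the 10 genes and 0.02 over all genes.

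Of the companion ligands and receptors, 4 were called after TLI/ATS, all lower. Ceacam1, a cell adhesion molecule, was the 1 called gene of 25 other ligands, at 3.86 ± 0.43 CPM after TLI/ATS and 16.01 ± 1.22 CPM untreated (log2 fold change -2.05 ± 0.23, adjusted p = 0.0214). Of 11 counter-receptors, Cd96 (log2 fold change -5.35 ± 0.75), Cd28 (-5.27 ± 0.40) and Cd40lg (-3.09 ± 0.45) fell, and none of the genes of CD40 signalling or of surface handling was called. T cell markers summed to between 20.1 and 28.6 CPM after TLI/ATS and between 747 and 754 CPM untreated, and all 11 fell. Markers of plasmacytoid dendritic cells summed to between 195 and 207 CPM after TLI/ATS and between 884 and 906 CPM untreated, with 6 of 8 called lower. B cell markers summed to between 70.0 and 74.3 CPM after TLI/ATS and between 643 and 644 CPM untreated, with 9 of 10 called lower. Macrophage markers summed to between 1007 and 1419 CPM after TLI/ATS and between 190 and 207 CPM untreated, with 8 of 12 called higher. None of the genes of these 4 marker lists was at 0 in either group. Their part in the values of Icosl, Pvr, Cd86 or the other ligands was not tested.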

How the data were processed

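RNA-seq gene counts of sorted mouse cDC1s were analysed in 3 tables, 20 libraries in 8 groups assigned from the sample titles. The authors deposited unnormalized read counts per gene. The submitters' processing notes name HISAT2, SAMtools, StringTie, featureCounts and GRCm38 for the TLI/ATS and EpoR tables, and the sources used here do not give their versions and options except where a header does. Per the file headers, featureCounts was version 2.0.3 for the EpoR table and version 2.0.8, with Ensembl release 100 of GRCm38, for the spleen and lymph node table. Both ignored strand and did not join mates, and each mate can thus be counted. The notes give HISAT2 2.1.0 for that last table. The columns of the EpoR table carry the letters P and N, read as EpoR+ and EpoR-. Reads carry no molecular identifiers, so floors cover counting error only.

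Genes were filtered by filterByExpr (minimum count 10, minimum total 15), scaled by TMM and tested with edgeR 4.0.16 in R 4.3.3 (quasi-likelihood test, robust, Benjamini-Hochberg over all genes, threshold 0.05). The TLI/ATS and EpoR tables were each fitted alone (4 libraries), and the spleen and lymph node table as 1 fit of 12 libraries with a mean per group. Alternatives were DESeq2 1.42.0 size factors and test, RLE scaling, library size only, no low-count filter, a replicate block, a fit on the 2 groups compared, and each library left out. The pipeline was tested on simulated data of the TLI/ATS, EpoR and spleen designs. With a dispersion of its own for each gene, the share of false calls was above the nominal threshold in both designs with 2 libraries per group, and below it with dispersions on the trend and in the spleen design. Replicates differed beyond sampling noise (chi-square per degree of freedom 13.3 to 267). The TLI/ATS pair differed more from each other (267) than from untreated libraries (146 to 201.5). Spleen control replicate 3 was nearer to spleen cKO libraries (27.15 to 49.69) than to its own group (142.6 and 124.4). Lymph node control replicate 2 was nearer to lymph node cKO replicates 1 and 3 (38.06 and 33.27) than to its own group (75.42 and 83.38). Lymph node cKO replicate 2 was in turn nearer to lymph node control replicate 3 (35.61) than to its own group (69.51 and 79.97). Its value against lymph node control replicate 1 was 68.81. On this measure the lymph node libraries did not group by genotype. TPM used exon lengths from the tables. The 10 ligands, the companion and marker lists and the tests were chosen with earlier results of these data known. Companion genes named are up to 3 per direction with the largest fold among those called, and for likeness the 2 genes with the highest Pearson r per ligand. Where fewer are named, they are taken from these.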

Additional observations from a re-analysis of the deposited data

Results flagged for a closer look

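The effect of the Epor deletion on Cd274 differed between the tissues by 0.63 on the log2 scale, lymph node minus spleen. It came up because the difference itself passed its test (adjusted p = 0.02), a call that held in 8 of 17 alternatives. Cd274 was higher in lymph node cKO than in lymph node control libraries, by 0.48, and the spleen value was -0.15.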

How the results depend on the processing

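Calls of the 10 ligands kept their number within 1.5 times under the alternatives not named here. With TLI/ATS against untreated, 0 to 5 genes were called when 1 library was left out, 0 in the fit as reported, and Cd274 changed sign between -0.55 without TLI/ATS replicate 1 and 0.49 without TLI/ATS replicate 2. EpoR+ against EpoR- gave 1 call as reported, 3 with DESeq2, 3 with no low-count filter, 6 with a replicate block and 1 to 4 with 1 library left out. Lymph node cKO against control gave 2 calls, 0 with library size only, 0 in a fit on the 2 groups compared and 1 to 2 with 1 library left out. The difference of the cKO effect gave 1 call, 0 with library size only, 2 with DESeq2 (Cd274 and Cd80), 0 with a replicate block and 0 to 1 with 1 library left out. In lymph node against spleen, library size only reversed Cd40 to 0.20 in control and 0.22 in cKO mice and Icosl to 0.26 in control mice. The cause was not tested.

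Same-numbered replicates deviated together only in the EpoR table, with a correlation of 0.42. With 2 libraries per group both pairs must give the same correlation, so this is 1 value and not 2 that agree. Elsewhere correlations lay between -0.0574 and 0.0411. Such values cannot show whether same-numbered libraries share an animal or batch, which the labels do not state. Under the replicate block the 6 genes called in the EpoR table were Vsir (1.33), Nectin2 (2.57, adjusted p = 0.0067), Pdcd1lg2 (1.79, 0.0217), Cd274 (1.22, 0.0093), Cd86 (0.28, 0.0108) and Cd200 (-0.57, 0.0369). The block ended the calls of Cd274 for the difference (adjusted p = 0.0666) and of Vsir in control tissues (0.0594).

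Counts over all genes moved by more than 1.5 times in these cases. TLI/ATS gave 465 as reported, 1324 with DESeq2 and 1264 with the replicate block. EpoR gave 2606, and 5347 with the block. Spleen cKO gave 106, 647 with DESeq2, 436 with no low-count filter and 40 with the block. Lymph node cKO gave 79, 204 with DESeq2, 170 with no filter and 44 in the fit on the 2 groups. The difference gave 55, 507 with DESeq2, 364 with no filter and 34 with the block. With 1 library left out, the TLI/ATS and EpoR counts moved too. Counts then ran from 31 to 379 for spleen cKO, from 51 to 72 for lymph node cKO and from 29 to 222 for the difference. Both 379 and 222 were reached without spleen control replicate 3. Library size only changed the split of higher and lower calls from 2454 and 2653 to 3996 and 1752 in cKO tissues, from 3651 and 3518 to 5273 and 2408 in control tissues, from 85 and 21 to 102 and 9 in the spleen, and from 22 and 33 to 15 and 41 for the difference. It moved the median of all genes for TLI/ATS to -0.10.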
